A study of Arabidopsis thaliana with 9 samples.

Results

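The UGT family of Arabidopsis thaliana was followed in leaf RNA of the natural accession Shahdara, in plants 9 weeks old. Members were all genes whose name in the authors' table is UGT followed by a number, a letter and a number, and 105 of the 32833 genes listed met that rule. The rule reads names alone and no measured value, but the family was chosen with earlier results of these data known. The 9 libraries came from 3 lines in the Shahdara background with 3 libraries each: a line whose titles read IAA26 knockout, a line whose titles read IAA26 stable and which is named stabilised here, and the wild type. The labels call the 3 libraries of a line biological replicates without saying whether each came from a separate plant, and name no further allele, transgene promoter or treatment, and each line is known here by its label only, so a line effect and an effect of IAA26 cannot be told apart. IAA26 is an Aux/IAA protein, a repressor of auxin response genes that is degraded when auxin is perceived.

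UGT enzymes are the family 1 glycosyltransferases of plants. They move a sugar from a UDP-sugar donor onto a small molecule such as a hormone, a flavonoid, a lignin precursor or a toxin, which usually makes it more soluble, less active or fit for storage in the vacuole. The donor is held by a conserved stretch near the end of the protein, the plant secondary product glycosyltransferase (PSPG) box, while the more variable first part of the protein binds the acceptor. Several members act on indole-3-acetic acid or on its precursors and relatives, so that the family is among the routes by which leaves set the level of free auxin.

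The pair UGT74E1 and UGT74E2 is shown by sequence, because it holds the largest fold change among the called members and because its members differed in opposite directions in stabilised leaves. UGT74E1 (AT1G05675) spans bases 1701116 to 1702749 of chromosome 1, minus strand, and UGT74E2 (AT1G05680) bases 1703002 to 1704838 of the same strand, with 252 bases between them (TAIR10). Their coding sequences have the same length and are 89.5% identical. Bases 991 to 1122 of each coding sequence, from the RefSeq annotation of TAIR10, encode the PSPG box and are given below in lower case, with the 12 bases at which the pair differs in capitals.
UGT74E1 PSPG box: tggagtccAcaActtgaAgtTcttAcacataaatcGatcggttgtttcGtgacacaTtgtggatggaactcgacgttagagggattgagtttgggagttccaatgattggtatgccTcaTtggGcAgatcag
UGT74E2 PSPG box: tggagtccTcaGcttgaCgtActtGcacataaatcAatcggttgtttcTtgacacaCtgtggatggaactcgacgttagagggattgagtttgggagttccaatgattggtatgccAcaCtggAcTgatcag
The 250 bases before each annotated start, read 5′ to 3′ on the gene's strand, were searched on both strands for 8 motifs: TGACG, the W-box core TTGAC, the G-box CACGTG, the evening element AAAATATCT, the auxin response elements TGTCTC and TGTCGG, the CCA1-binding site AAAAATCT, and the abscisic acid response core ACGTG, which also lies inside the G-box. Capitals mark every match.
UGT74E1 upstream chr1:1702750-1702999: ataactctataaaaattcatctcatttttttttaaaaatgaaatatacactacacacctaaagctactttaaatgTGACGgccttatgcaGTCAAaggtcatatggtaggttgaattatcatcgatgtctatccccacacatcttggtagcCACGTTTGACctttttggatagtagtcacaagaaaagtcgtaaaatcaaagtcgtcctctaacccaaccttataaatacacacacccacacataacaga
UGT74E2 upstream chr1:1704839-1705088: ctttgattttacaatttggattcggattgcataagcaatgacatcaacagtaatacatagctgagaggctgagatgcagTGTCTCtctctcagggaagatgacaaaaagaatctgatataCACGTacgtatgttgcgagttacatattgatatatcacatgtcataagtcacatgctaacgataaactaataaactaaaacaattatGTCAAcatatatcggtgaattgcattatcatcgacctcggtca
The UGT74E1 window held TGACG 175 bases before the start, TTGAC at 160 and 94 bases and ACGTG at 99 bases. The UGT74E2 window held TGTCTC 171 bases before the start, ACGTG at 130 bases and TTGAC at 43 bases. Each motif is common in windows of this length: TTGAC was in 53.3% of the 105 member windows and in 44.3% of the windows of 32546 genes, TGTCTC in 15.2% and 11.0%, TGACG in 21.9% and 18.4%, and ACGTG in 30.5% and 21.8%. The other motifs were in at most 6.67% of member windows. A match describes the letters only.

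Libraries held 28585976 to 45346301 exon reads. IAA26 itself was measured at 16.7, 17.2 and 12.4 RPKM in the knockout-labelled libraries, at 12.7, 9.81 and 10.3 RPKM in the stabilised libraries, and at 17.5, 18.5 and 20.3 RPKM in the wild-type libraries (RPKM, reads per kilobase of exon scaled to the size of the library, as the authors deposited it). It was therefore transcribed in the line labelled as its knockout, with a log2 fold change of -0.40 ± 0.11 (SE) against the wild type that did not pass the test (adjusted p = 0.120, edgeR's quasi-likelihood test, adjusted over the 19409 genes with enough reads), and the name knockout-labelled is kept for that line. In stabilised leaves IAA26 was lower than in the wild type (log2 -0.70 ± 0.12, adjusted p = 0.0112). A gene is called, here and below, where edgeR's adjusted p was under 0.05, unless DESeq2 is named. Leaf mesophyll markers summed to 7026 to 12270 RPKM, while the seed markers CRA1 and OLEO1 were at 0 in all libraries and the root markers PYK10 and CASP1 summed to at most 11.2 RPKM. Single mesophyll markers varied unequally. CA1 ran from 44.7 RPKM in knockout-labelled library 1 to 357 RPKM in stabilised library 3. LHCB1.1 ran from 569 to 2486 RPKM in stabilised libraries 1 and 2, and RCA only from 3638 to 7235 RPKM over the libraries. The 4 flower markers summed to 23.4 RPKM in knockout-labelled library 3, against at most 8.75 RPKM in the other libraries. Of these markers AG differed little, at 2.51 RPKM in that library and 1.03 to 2.08 RPKM in the others. The guard cell markers MYB60 and FAMA summed to 23.6 to 33.1 RPKM in knockout-labelled, 14.9 to 16.8 RPKM in stabilised and 16.2 to 22.1 RPKM in wild-type libraries. Stabilised library 1 stood apart from its 2 replicates: 1351 genes were called in stabilised against knockout-labelled leaves with it and 5241 without it. The part of these differences in the results below was not tested, and the counts below are given with and without the libraries that move them.

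Of the 105 members, 6 had no read in any library, 77 had enough reads to be tested and 28 had not. Mean levels over the 9 libraries were at least 10 RPKM for 35 members, 1 to 10 RPKM for 29 and below 1 RPKM for 41. The 10 members with the highest means held 48.4% of the summed RPKM of the family. The highest were UGT72B1 at 115 RPKM, which glucosylates monolignols and chlorinated xenobiotics, UGT88A1 at 101 RPKM, UGT74C1 at 83.8 RPKM and UGT74B1 at 73.1 RPKM, both of glucosinolate synthesis, and UGT72E1 at 67.0 RPKM, which acts on coniferyl and sinapyl aldehydes. UGT75D1, UGT75C1, UGT74F2, UGT84A2 and UGT89C1 followed at 37.4 to 41.3 RPKM. Summed over the family, the level was 1451, 1638 and 1157 RPKM in knockout-labelled libraries, 1288, 909 and 901 RPKM in stabilised libraries, and 1538, 1380.05 and 1626 RPKM in wild-type libraries. In these sums of RPKM, scaled by library size alone, every stabilised library lay below every wild-type library, whereas the knockout-labelled libraries overlapped with both. In whole leaves, fewer cells that express a gene and less RNA per cell cannot be told apart.

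**Figure D1:**
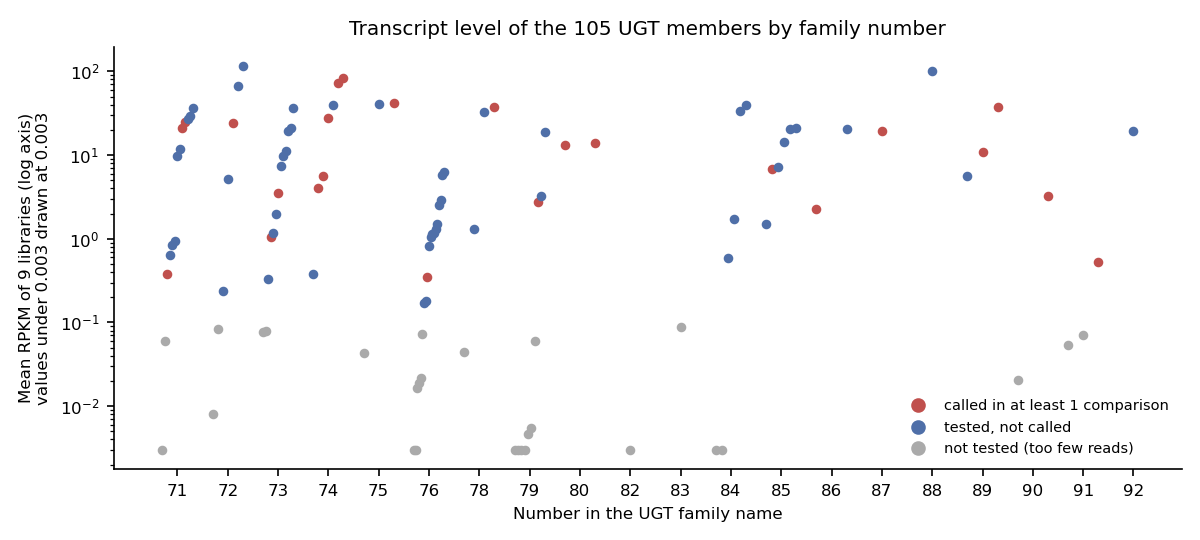
Mean RPKM over the 9 libraries (log axis) of each of the 105 UGT members, arranged by the number in the family name; red points are the 24 members called in at least 1 comparison, blue points tested members with no call, and grey points the 28 members with too few reads. Called members ranged from low ones such as UGT71D1, below 1 RPKM, to UGT74C1 at 83.8 RPKM, and the UGT76 group held 19 members of which 13 were tested.

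Many members lie side by side on the chromosomes: 18 runs of adjacent members, set by position alone, held 50 of the 105. Reads that map equally well to several places would blur near copies, so the share of exon reads at a unique position was examined for the 99 members with reads. It was at least 99% for 80 of them and below 90% for 14. Close identity was not enough for a low share. Of 26 members whose coding sequence was at least 85% identical to another member, 21 had at least 95% unique reads, and the most alike pair, UGT79B2 and UGT79B3 at 95.39%, had 99.7% and 100% unique reads (of only 34 reads for UGT79B3, all in knockout-labelled library 3). All 14 members below 90% overlapped another listed gene on the chromosome, 11 of them over more than 50% of their length, while 0 of the other 85 members were covered to that extent.

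In most of these cases the overlapping gene was a long non-coding RNA on the opposite strand. UGT71B2 and UGT73C6 had 0% unique reads, UGT71B6, which glucosylates abscisic acid, 0.0187%, and UGT89C1, the flavonol 7-O-rhamnosyltransferase, 0.253%. UGT74D1, which glucosylates indole-3-acetic acid, had 15.02%, and 99.3% of its length is shared with the non-coding gene AT2G31751. UGT73B4 lies on the same strand inside the span of UGT73B5 and had 14.5%. No source used here states if strand was used for counting, and reads of these members and of their overlapping genes cannot be told apart. Their values are given below with that limit. UGT74E1, UGT74E2, UGT79B8, UGT85A7 and UGT80B1 had 100% unique reads.

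**Figure D2:**
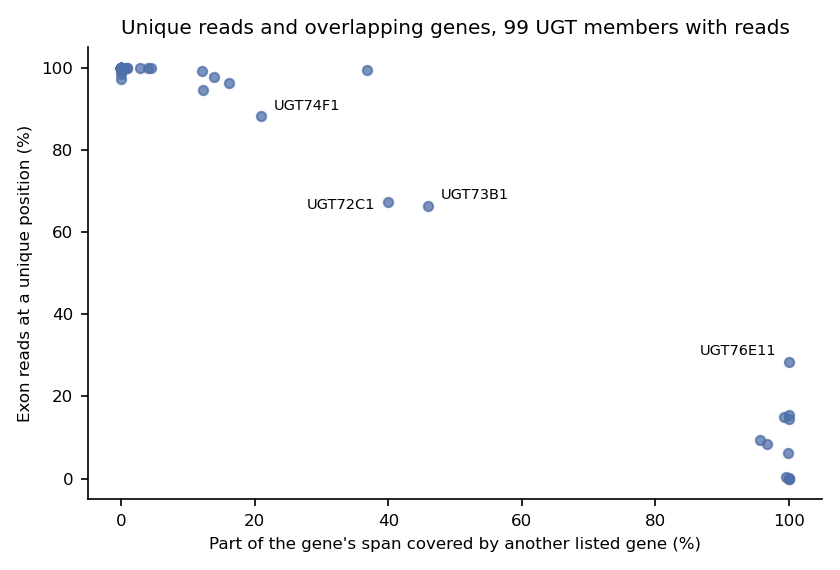
Percentage of exon reads at a unique position against the percentage of the gene's length covered by the listed gene that overlaps it most, for 99 UGT members with reads (1 point each). The 11 members covered over more than 50% of their length all sit below 30% unique reads, and the 80 members with at least 99% lie along the top, all but UGT73B5 at the left.

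The comparison of the knockout-labelled line with the wild type asked which UGT transcripts differ where the label says that IAA26 is lost. In that line 5 members fell and 1 rose. The falls took in both members of the UGT74E pair, UGT79B8, UGT85A7 and the glucosinolate gene UGT74C1, and the rise was that of the sterol glucosyltransferase UGT80B1. This is 7.79% of the 77 members tested, against 1.66% of the 19409 genes tested (0.927% higher and 0.732% lower). Before adjustment, 5 higher and 23 lower members had a p under 0.05. The share of all genes that passed this cut is not given here. Counts before adjustment, here and below, therefore have no background beside them. The median log2 fold change was -0.34 over the members tested and 0.00 over all genes tested, with 47 members below 0 and 30 above.

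UGT74E1 stood at 0.340, 0.294 and 0.619 RPKM in knockout-labelled leaves, against 2.71, 3.56 and 2.73 RPKM in wild-type leaves. All knockout-labelled libraries were below all wild-type libraries, and the log2 fold change was -2.94 ± 0.34 (SE), or 7.68-fold lower (adjusted p = 0.0164, edgeR's quasi-likelihood test, Benjamini-Hochberg adjusted). UGT74E2, which glucosylates the auxin precursor indole-3-butyric acid, stood at 3.43, 2.81 and 4.70 RPKM in knockout-labelled leaves, against 12.5, 10.8 and 11.4 RPKM in wild-type leaves. It too was lower in every knockout-labelled library, by 3.41-fold (log2 -1.77 ± 0.30, adjusted p = 0.0349). UGT79B8 (AT2G22930), which shares 89.9% of its coding bases with UGT79B7, had 0.823, 0.659 and 1.14 RPKM in knockout-labelled leaves, against 3.09, 3.36 and 2.81 RPKM in wild-type leaves. The groups did not overlap and the fall was 3.79-fold (log2 -1.92 ± 0.23, adjusted p = 0.0175).

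UGT74C1, linked to the glucosylation step of aliphatic glucosinolate synthesis, had 56.8, 57.0 and 69.5 RPKM in knockout-labelled leaves, against 107, 99.9 and 106 RPKM in wild-type leaves. It was lower in each knockout-labelled library (log2 -0.88 ± 0.12, adjusted p = 0.0184). UGT85A7 had 4.81, 3.52 and 4.81 RPKM in knockout-labelled leaves, against 7.44, 9.34 and 8.08 RPKM in wild-type leaves, again with no overlap (log2 -1.03 ± 0.15, adjusted p = 0.0254). UGT80B1, a sterol glucosyltransferase known from the seed coat, had 16.0, 14.8 and 14.1 RPKM in knockout-labelled leaves, against 10.4, 9.25 and 9.86 RPKM in wild-type leaves. Every knockout-labelled library was higher (log2 0.49 ± 0.09, adjusted p = 0.0458). These calls rest on few libraries. Without knockout-labelled library 1 or without library 2 edgeR called no member in either direction (5 higher and 16 lower members had an unadjusted p under 0.05 without library 1, and 5 and 21 without library 2). Of all genes only 11 and 10 were called in these fits, against 322 with all libraries, so that the loss was not particular to the members. Without knockout-labelled library 3, where the summed flower markers were highest, 0 members were higher and 5 lower (144 genes called in all). Without wild-type library 1 the count was 0 higher and 3 lower, without wild-type library 2 it was 1 and 3, and without wild-type library 3 it was 0 and 1. Genes called in all were 116, 94 and 30. Stabilised libraries enter this comparison through the shared filter, scaling and spread. Leaving out stabilised library 1, 2 or 3 gave 1 and 7, 0 and 6, and 0 and 4 (546, 284 and 108 genes in all).

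**Figure D3:**
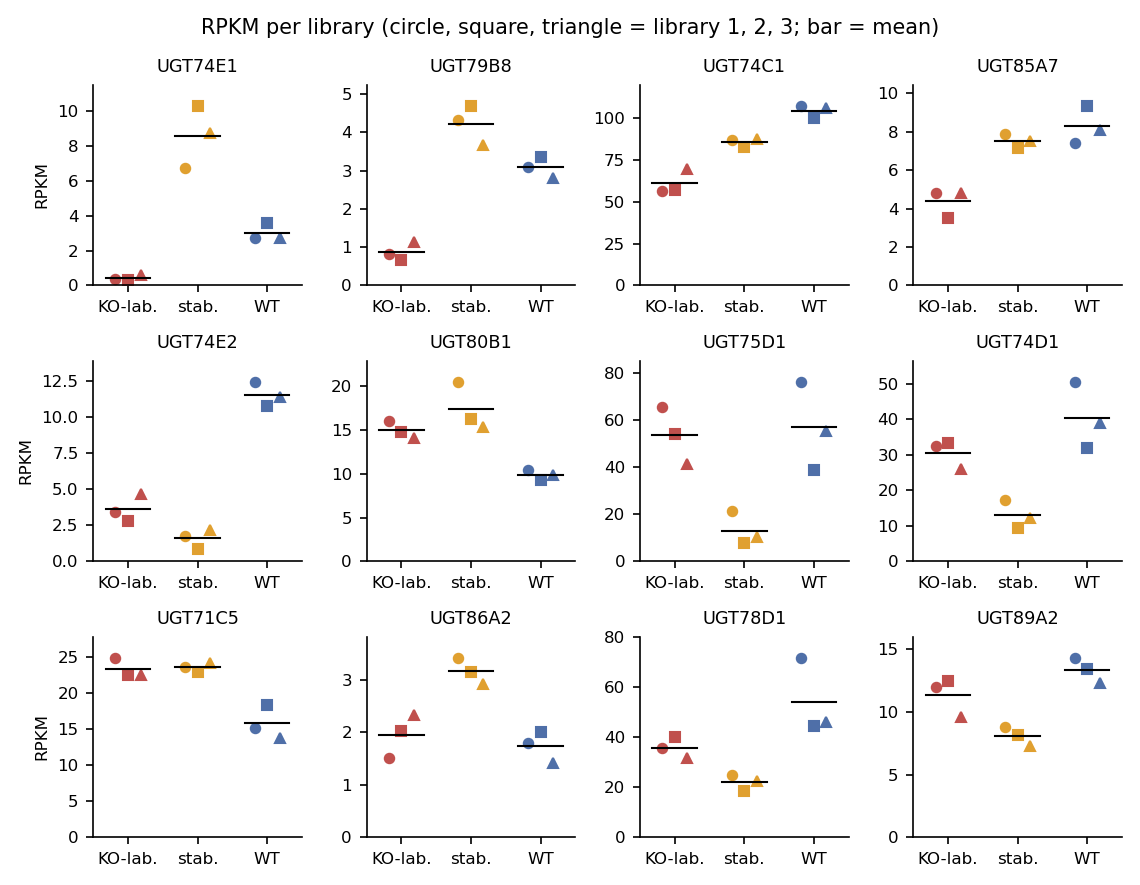
RPKM in each library (circle, square and triangle for libraries 1, 2 and 3; black bar, group mean; KO-lab., knockout-labelled; stab., stabilised; WT, wild type) of the 6 members called in knockout-labelled against wild-type leaves and of 6 members called in stabilised against wild-type leaves. UGT74E1 was lowest in knockout-labelled leaves (0.294 to 0.619 RPKM) and highest in stabilised leaves (6.76 to 10.3 RPKM), while UGT74E2 was below its wild-type levels of 10.8 to 12.5 RPKM in both lines.

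The comparison of the stabilised line with the wild type asked which UGT transcripts differ in leaves labelled as carrying stable IAA26. In stabilised leaves 12 members fell and 5 rose. The falls took in the auxin genes UGT74E2, UGT74D1 and UGT75D1, the flavonol genes UGT78D1 and UGT89C1, and the stress genes UGT73B3 and UGT73B4. The rises took in both sterol glucosyltransferases, UGT74E1, UGT86A2 and the abscisic acid gene UGT71C5. The 17 calls are 22.1% of the 77 members tested, against 8.87% of all genes tested (5.09% higher and 3.78% lower). The median log2 fold change was -0.33 over the members and 0.01 over all genes, with 56 members below 0 and 21 above. Before adjustment 6 higher and 24 lower members had a p under 0.05, a count without a share over all genes.

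Among the auxin genes, UGT74E2 stood at 1.75, 0.883 and 2.18 RPKM in stabilised leaves, against 12.5, 10.8 and 11.4 RPKM in wild-type leaves. The groups were far apart and the fall was 6.83-fold (log2 -2.77 ± 0.32, adjusted p = 0.00293, edgeR's quasi-likelihood test). UGT75D1 (AT4G15550), which also glucosylates indole-3-butyric acid, had 21.4, 7.65 and 10.2 RPKM in stabilised leaves, against 76.3, 39.0 and 55.7 RPKM in wild-type leaves. Every stabilised library was lower, by 4.23-fold in the fit (log2 -2.08 ± 0.37, adjusted p = 0.0146). UGT74D1 (AT2G31750) had 17.4, 9.52 and 12.3 RPKM in stabilised leaves, against 50.4, 31.8 and 38.8 RPKM in wild-type leaves. The groups did not overlap (log2 -1.57 ± 0.21, adjusted p = 0.00532), and in its unique reads alone the log2 fold change was -1.65 (adjusted p = 0.00330). The other tested auxin member, UGT76F1, which acts on indole-3-pyruvic acid, had 0.0805, 0.0901 and 0.156 RPKM in stabilised leaves, against 0.134, 0.167 and 0.137 RPKM in wild-type leaves, and was not called (log2 -0.31 ± 0.46, adjusted p = 0.70). UGT84B1, an indole-3-acetic acid glucosyltransferase, had no read in any library.

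UGT74E1, next to UGT74E2 on the chromosome, went the other way in stabilised leaves. It had 6.76, 10.3 and 8.71 RPKM in stabilised leaves, against 2.71, 3.56 and 2.73 RPKM in wild-type leaves. The lowest stabilised library was above the highest wild-type library (log2 1.61 ± 0.30, adjusted p = 0.0163). UGT80B1 had 20.5, 16.2 and 15.3 RPKM in stabilised leaves, against 10.4, 9.25 and 9.86 RPKM in wild-type leaves (log2 0.89 ± 0.09, adjusted p = 0.00198). UGT80A2, the other sterol glucosyltransferase, had 14.5, 13.1 and 12.4 RPKM in stabilised leaves, against 11.3, 12.0 and 11.2 RPKM in wild-type leaves. Neither sterol gene overlapped between the groups, and the rise of UGT80A2 was small (log2 0.29 ± 0.07, adjusted p = 0.0395).

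UGT71C5, an abscisic acid glucosyltransferase, had 23.6, 22.9 and 24.1 RPKM in stabilised leaves, against 15.1, 18.4 and 13.8 RPKM in wild-type leaves. It was higher in every stabilised library (log2 0.66 ± 0.11, adjusted p = 0.0123). UGT86A2 had 3.41, 3.15 and 2.92 RPKM in stabilised leaves, against 1.79, 2.00 and 1.42 RPKM in wild-type leaves, also without overlap (log2 0.94 ± 0.20, adjusted p = 0.0274). Among abscisic acid genes, UGT71B6 averaged 9.68 ± 2.88 RPKM in stabilised and 8.93 ± 2.09 RPKM in wild-type leaves (SD, n = 3 each), and its partner UGT71B7 averaged 24.3 ± 6.60 RPKM in stabilised and 28.0 ± 1.11 RPKM in wild-type leaves. Neither was called, with log2 fold changes of 0.18 and -0.14, and only 0.0187% of the reads of UGT71B6 were at a unique position. UGT71B8, which lies beside them on the chromosome, had no read.

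The flavonol 3-O-rhamnosyltransferase UGT78D1 had 25.0, 18.7 and 22.3 RPKM in stabilised leaves, against 71.5, 44.4 and 46.1 RPKM in wild-type leaves. It was lower in every stabilised library (log2 -1.22 ± 0.19, adjusted p = 0.00853). UGT89C1 had 28.8, 28.0 and 18.4 RPKM in stabilised leaves, against 66.2, 44.6 and 51.7 RPKM in wild-type leaves. Its groups were also apart (log2 -1.03 ± 0.25, adjusted p = 0.0414), but with 0.253% unique reads it could not be tested on these alone. The other 3 flavonoid members tested were not called, with log2 fold changes of -0.71 for the flavonoid 3-O-glucosyltransferase UGT78D2, -1.26 for the anthocyanin 5-O-glucosyltransferase UGT75C1 and 0.17 for UGT79B2.

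Genes tied to stress and salicylic acid were next. UGT73B3, which has a part in redox responses and in resistance to Pseudomonas, had 2.35, 1.56 and 1.11 RPKM in stabilised leaves, against 4.15, 6.002 and 5.40 RPKM in wild-type leaves. All stabilised libraries were lower (log2 -1.57 ± 0.31, adjusted p = 0.0208). Its relative UGT73B4 had 0.312, 0.210 and 0.182 RPKM in stabilised leaves, against 4.86, 1.42 and 0.740 RPKM in wild-type leaves. The groups did not overlap, but wild-type library 1 alone was far above the others, and 14.5% of its reads were at a unique position (log2 -3.25 ± 0.70, adjusted p = 0.0289). UGT73B5 averaged 15.3 ± 7.56 RPKM in stabilised and 19.9 ± 3.82 RPKM in wild-type leaves (SD, n = 3 each) and was not called (log2 -0.33). UGT73C7 averaged 0.278 ± 0.118 RPKM in stabilised and 0.346 ± 0.0865 RPKM in wild-type leaves and was not called either (log2 -0.25).

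Of 6 salicylate members tested, edgeR called 1 lower in stabilised leaves and DESeq2 called 3 lower, while 4 were lower at an unadjusted p under 0.05. Over all genes in this comparison, edgeR called 1721 and DESeq2 called 3418, higher and lower together. The member called by edgeR was UGT89A2, which puts xylose on dihydroxybenzoic acids, with 8.79, 8.16 and 7.31 RPKM in stabilised leaves, against 14.3, 13.4 and 12.3 RPKM in wild-type leaves. The groups were apart with little spread (log2 -0.64 ± 0.11, adjusted p = 0.0121). UGT74F2, which makes the glucose ester of salicylic acid, had 41.4, 18.3 and 18.9 RPKM in stabilised leaves, against 29.5, 69.2 and 82.2 RPKM in wild-type leaves, and the groups overlapped (log2 -1.15 ± 0.39, adjusted p = 0.104 by edgeR and 0.0216 by DESeq2). The other 4 were not called by edgeR, although DESeq2 called UGT74F1 lower (adjusted p = 0.0222), with edgeR log2 fold changes of -2.29 for UGT74F1, which makes the glucoside, -1.81 for UGT71C3, which acts on methyl salicylate, -1.81 for UGT76B1 and 0.56 for UGT76D1.

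UGT87A2, which promotes flowering through the repressor FLC, had 16.5, 8.87 and 7.76 RPKM in stabilised leaves, against 29.6, 23.6 and 28.6 RPKM in wild-type leaves. It was lower in every stabilised library (log2 -1.25 ± 0.25, adjusted p = 0.0234). UGT71B1 had 18.0, 9.78 and 10.3 RPKM in stabilised leaves, against 41.1, 28.7 and 32.8 RPKM in wild-type leaves (log2 -1.37 ± 0.22, adjusted p = 0.00945). UGT90A1 had 2.90, 1.40 and 1.61 RPKM in stabilised leaves, against 4.14, 4.41 and 4.38 RPKM in wild-type leaves (log2 -1.07 ± 0.26, adjusted p = 0.0408). Both were lower without overlap. The remaining call, UGT91A1, was below 1 RPKM in all groups on average and is named after its values were seen (log2 -1.58 ± 0.36, adjusted p = 0.0342).

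The stabilised calls moved with several libraries as well. The count of higher and lower members was 5 and 12 with all libraries, where 1721 genes were called in all. It was 5 and 22 without stabilised library 1 (3786 genes called in all). Without library 2 it was 1 and 5 (584 genes), and without library 3 it was 2 and 5 (848 genes), so that the calls over all genes moved as well. Without wild-type library 1, 2 or 3 the count was 1 and 9, 4 and 10, and 2 and 10 (744, 1303 and 736 genes in all). Without knockout-labelled library 1, 2 or 3 it was 4 and 8, 3 and 9, and 5 and 11 (1002, 1021 and 1418 genes in all). The calls of UGT80B1, UGT74E2, UGT74D1, UGT78D1, UGT71B1 and UGT89A2 held in all 9 of these fits.

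**Figure D4:**
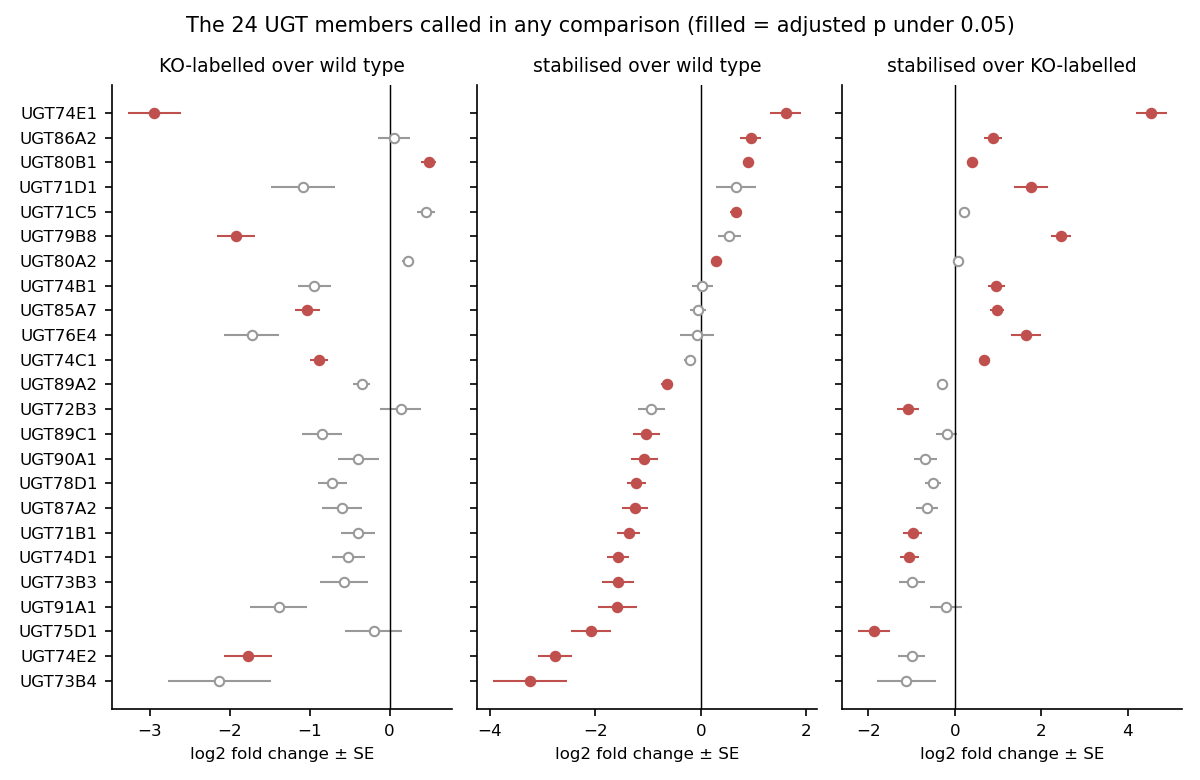
Log2 fold changes with SE of the 24 members called in at least 1 comparison, ordered by their value in stabilised over wild-type leaves; filled red points passed an adjusted p of 0.05 and open grey points did not. UGT74E1 lies at -2.94 in knockout-labelled over wild-type leaves and at 1.61 in stabilised over wild-type leaves; the comparisons share libraries and are not independent.

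The direct comparison of the lines used the same libraries again and is not independent of the other comparisons. In stabilised leaves 9 members were higher and 4 lower than in knockout-labelled leaves. These 13 calls are 16.9% of the 77 members tested, against 6.96% of all genes tested (4.87% higher and 2.09% lower). The median log2 fold change was -0.20 over the members and 0.00 over all genes. With libraries scaled by their totals alone, which moved the median of all genes to -0.19, 7 members were higher and 6 lower. Before adjustment, 12 higher and 21 lower members had a p under 0.05, again without a share over all genes.

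UGT74E1 differed most. It stood at 6.76, 10.3 and 8.71 RPKM in stabilised leaves, against 0.340, 0.294 and 0.619 RPKM in knockout-labelled leaves, so that the groups were well apart (23.5-fold, log2 4.55 ± 0.35, adjusted p = 0.00367, edgeR's quasi-likelihood test). UGT79B8 had 4.32, 4.69 and 3.68 RPKM in stabilised leaves, against 0.823, 0.659 and 1.14 RPKM in knockout-labelled leaves. It too was higher in every stabilised library (5.51-fold, log2 2.46 ± 0.24, adjusted p = 0.00999). Against the wild type its stabilised level was not called (log2 0.54 ± 0.22, adjusted p = 0.161). UGT74E2 was lower in stabilised than in knockout-labelled leaves in every library, at 1.75, 0.883 and 2.18 RPKM against 3.43, 2.81 and 4.70 RPKM, but did not pass edgeR's test (log2 -1.004 ± 0.31, adjusted p = 0.0827), while DESeq2 called it (adjusted p = 0.0173).

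Both glucosinolate genes were higher in stabilised leaves. UGT74B1 (AT1G24100), which glucosylates the thiohydroximates of glucosinolate synthesis, had 71.5, 103 and 74.1 RPKM in stabilised leaves, against 52.3, 44.2 and 50.7 RPKM in knockout-labelled leaves. UGT74C1 had 86.8, 83.1 and 87.5 RPKM in stabilised leaves, against 56.8, 57.0 and 69.5 RPKM in knockout-labelled leaves. Neither gene overlapped between the lines (log2 0.96 ± 0.20, adjusted p = 0.0357 for UGT74B1, and log2 0.68 ± 0.12, adjusted p = 0.0221 for UGT74C1). In wild-type leaves UGT74B1 had 89.7, 99.2 and 72.6 RPKM, close to its stabilised range, and its lower level in knockout-labelled leaves was not called by edgeR (log2 -0.94 ± 0.20, adjusted p = 0.0641) but was by DESeq2 (adjusted p = 0.000799).

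UGT85A7 had 7.91, 7.17 and 7.54 RPKM in stabilised leaves, against 4.81, 3.52 and 4.81 RPKM in knockout-labelled leaves (log2 0.97 ± 0.15, adjusted p = 0.0187). UGT86A2 had 3.41, 3.15 and 2.92 RPKM in stabilised leaves, against 1.51, 2.02 and 2.32 RPKM in knockout-labelled leaves (log2 0.88 ± 0.20, adjusted p = 0.0403). Both were higher in every stabilised library. UGT71D1, a low member, had 0.357, 0.605 and 0.714 RPKM in stabilised leaves, against 0.162, 0.149 and 0.258 RPKM in knockout-labelled leaves (log2 1.76 ± 0.40, adjusted p = 0.0404). UGT76E4, also low, had 0.549, 0.460 and 0.275 RPKM in stabilised leaves, against 0.107, 0.196 and 0.158 RPKM in knockout-labelled leaves (log2 1.64 ± 0.35, adjusted p = 0.0360). Their groups were apart as well, whereas UGT80B1, with 20.5, 16.2 and 15.3 RPKM in stabilised leaves against 16.0, 14.8 and 14.1 RPKM in knockout-labelled leaves, overlapped between the lines (log2 0.40 ± 0.09, adjusted p = 0.0431).

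The 4 members that were lower in stabilised leaves included the auxin genes UGT75D1 and UGT74D1. UGT75D1 had 21.4, 7.65 and 10.2 RPKM in stabilised leaves, against 65.7, 54.3 and 41.6 RPKM in knockout-labelled leaves (log2 -1.88 ± 0.37, adjusted p = 0.0307). UGT74D1 had 17.4, 9.52 and 12.3 RPKM in stabilised leaves, against 32.6, 33.2 and 26.1 RPKM in knockout-labelled leaves (log2 -1.05 ± 0.21, adjusted p = 0.0315). Neither overlapped, and neither was called in knockout-labelled against wild-type leaves (log2 -0.20 and -0.52). UGT71B1 had 18.0, 9.78 and 10.3 RPKM in stabilised leaves, against 27.7, 33.1 and 24.0 RPKM in knockout-labelled leaves (log2 -0.97 ± 0.21, adjusted p = 0.0390). UGT72B3, a relative of UGT72B1, had 20.1, 9.28 and 10.6 RPKM in stabilised leaves, against 36.5, 36.2 and 22.6 RPKM in knockout-labelled leaves (log2 -1.08 ± 0.26, adjusted p = 0.0458). Both were lower without overlap, each with stabilised library 1 nearest to the other line.

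Left-out libraries moved these counts most of all. With all libraries 9 members were higher and 4 lower. Over all genes 1351 were called with all libraries. Without stabilised library 1 the member counts were 12 and 19 (5241 genes called in all). They were 2 and 0 without library 2 (158 genes) and 5 and 0 without library 3 (489 genes). Without knockout-labelled library 1 edgeR called no member (10 higher and 12 lower had an unadjusted p under 0.05), without library 2 it called 2 and 0, and without library 3 it called 6 and 4. Of all genes, 3, 8 and 869 were called in these fits. Wild-type libraries enter here through the shared filter, scaling and spread. Without wild-type library 1, 2 or 3 the member counts were 8 and 4, 4 and 2, and 5 and 0 (1296, 758 and 646 genes in all). Among these 9 fits the call of UGT74E1 was lost only without knockout-labelled library 1 (adjusted p = 0.0565), as was that of UGT79B8 (adjusted p = 0.0836).

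Grouped by role, 4 auxin members were tested and their medians were -0.36 in knockout-labelled over wild-type leaves, with 0 higher and 1 lower, -1.82 in stabilised over wild-type leaves, with 0 higher and 3 lower, and -1.03 in stabilised over knockout-labelled leaves, with 0 higher and 2 lower. In knockout-labelled leaves UGT76F1 had 0.192, 0.191 and 0.375 RPKM, above its wild-type range, but was not called (log2 0.68 ± 0.43, adjusted p = 0.434). The medians over all genes were 0.00, 0.01 and 0.00 in the 3 comparisons, and 0.732%, 3.78% and 2.09% of all genes tested were called lower. The members do not all act on auxin itself, and UGT74E1 has no role in the list although it is the nearest copy of UGT74E2. The role list was also chosen with earlier results of these data known.

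Of the 6 salicylate members, edgeR called 0 in knockout-labelled against wild-type leaves, while 3 had a lower level with a p under 0.05 before adjustment and DESeq2 called 1 lower, and their median was -1.18. Over all genes in this comparison, edgeR called 322 and DESeq2 called 1778, higher and lower together. Among the 3 lower salicylate members was UGT76B1, which glucosylates isoleucic acid, salicylic acid and N-hydroxypipecolic acid. It had 0, 2 and 1 reads in knockout-labelled leaves, 15, 2 and 2 reads in stabilised leaves, and 34, 28 and 24 reads in wild-type leaves. With the reads of each group pooled and corrected for library totals, the knockout-labelled share was 0.0390 times the wild-type share. The 95% exact Clopper-Pearson interval, 0.00789 to 0.118, holds counting error only and no spread between libraries. In edgeR the call was missed (adjusted p = 0.0602, and 0.00223 by DESeq2). UGT76B1 passed the filter on low counts through its wild-type libraries, so its low knockout-labelled level is given as a description only. UGT74F2, at 40.0 RPKM the highest of these genes, had 30.7, 38.1 and 31.6 RPKM in knockout-labelled leaves, against 29.5, 69.2 and 82.2 RPKM in wild-type leaves, where 1 library lay below all knockout-labelled ones. The other fitted log2 values there were -1.65 for UGT71C3, -1.40 for UGT74F1, -0.35 for UGT89A2 and 0.11 for UGT76D1. No salicylate member was called between the lines by edgeR or by DESeq2, where 1 higher and 1 lower member had an unadjusted p under 0.05.

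No cytokinin member was called in any comparison by edgeR or by DESeq2, and 1 was lower at an unadjusted p under 0.05 in knockout-labelled against wild-type leaves. UGT76C1 and UGT76C2, the cytokinin N-glucosyltransferases, had log2 fold changes of -0.36 and -0.65 in knockout-labelled over wild-type leaves and of -0.05 and -0.66 in stabilised over wild-type leaves. UGT85A1, which O-glucosylates trans-zeatin, had -0.56 and -0.21, and UGT73C1, which acts on zeatin in vitro, 0.59 and -0.89 on the same scale. Mean levels were 5.37 ± 0.102 RPKM in knockout-labelled, 5.77 ± 1.01 RPKM in stabilised and 6.36 ± 0.264 RPKM in wild-type leaves for UGT76C1, and 5.73 ± 1.77 RPKM in knockout-labelled, 4.91 ± 0.791 RPKM in stabilised and 8.29 ± 2.83 RPKM in wild-type leaves for UGT76C2 (SD, n = 3 each). The brassinosteroid-inactivating genes UGT73C5 and UGT73C6 were likewise called in no comparison by edgeR or DESeq2, nor at an unadjusted p under 0.05, with log2 fold changes of 0.23 and -0.32 in knockout-labelled over wild-type leaves and of -0.60 and -0.21 in stabilised over wild-type leaves. UGT73C6 had 0% unique reads. The jasmonate gene UGT76E1 had 12 reads over all libraries and was not tested.

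No phenylpropanoid member of 6 tested was called by edgeR in any comparison, although in stabilised against wild-type leaves 3 had a lower level with an unadjusted p under 0.05 (2 lower by DESeq2), and so did 3 in stabilised against knockout-labelled leaves (1 lower by DESeq2). Over all genes, DESeq2 called 3418 in the first of these comparisons and 3641 in the second, higher and lower together. The unadjusted counts have no share over all genes beside them. UGT72B1 had 148, 138 and 88.4 RPKM in knockout-labelled leaves, 94.8, 55.4 and 53.2 RPKM in stabilised leaves, and 205, 107 and 148 RPKM in wild-type leaves. All stabilised libraries were below all wild-type libraries, and edgeR's call was missed (log2 -1.12 ± 0.29, adjusted p = 0.0518; 0.00246 by DESeq2). UGT72E1 had 93.2, 99.02 and 80.9 RPKM in knockout-labelled leaves, 64.1, 49.2 and 63.5 RPKM in stabilised leaves, and 47.7, 64.1 and 41.4 RPKM in wild-type leaves. It was highest in knockout-labelled leaves, with no overlap with either other line, but was not called by edgeR (log2 0.72 ± 0.16, adjusted p = 0.0685 against the wild type). DESeq2 and the unadjusted test each had 1 phenylpropanoid member higher in that comparison, where DESeq2 called 1778 genes in all. The hydroxycinnamate genes UGT84A1, UGT84A3 and UGT84A4 had log2 fold changes of -1.14, -0.68 and -0.52 in stabilised over wild-type leaves and of -0.34, 0.12 and 0.13 in knockout-labelled over wild-type leaves, and UGT84A2, which makes sinapoylglucose, -0.58 and 0.62.

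The other flavonoid, abscisic acid and stress members gave no call in knockout-labelled against wild-type leaves. UGT78D1 had 35.5, 40.2 and 31.6 RPKM in knockout-labelled leaves, below all of its wild-type libraries (log2 -0.71 ± 0.18, adjusted p = 0.0970). UGT89C1 had 28.9, 44.9 and 25.0 RPKM there and overlapped with the wild type (log2 -0.84 ± 0.25, adjusted p = 0.125). These were the 2 flavonoid members that passed an unadjusted p under 0.05, and DESeq2 called 2 as well, of 1778 genes that it called in all. UGT78D2, UGT75C1 and UGT79B2 had log2 fold changes of 0.00, 0.19 and -0.33. UGT71C5 had 24.8, 22.5 and 22.5 RPKM in knockout-labelled leaves, above every wild-type library, and was called by DESeq2 but not by edgeR (log2 0.45 ± 0.11, adjusted p = 0.0901), while UGT71B6 and UGT71B7 had log2 values of 0.13 and 0.19. Of the stress members, UGT73B4 alone passed the unadjusted test (log2 -2.13 ± 0.65, adjusted p = 0.131) and DESeq2 called 1, and UGT73B3, UGT73B5 and UGT73C7 had log2 fold changes of -0.57, 0.35 and -0.03. UGT87A2 had 19.0, 24.8 and 15.1 RPKM in knockout-labelled leaves and was not called (log2 -0.60 ± 0.25, adjusted p = 0.236).

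UGT88A1, the second highest member, varied little, with 90.4, 86.8 and 105 RPKM in knockout-labelled leaves, 82.8, 95.7 and 95.4 RPKM in stabilised leaves, and 102, 133 and 114 RPKM in wild-type leaves. It was not called, with log2 fold changes of -0.42 ± 0.16 and -0.26 ± 0.15 against the wild type. Counts of members whose groups did not overlap are given only beside the background: 23 of 77 in knockout-labelled against wild-type leaves (31.7% of all genes tested), 26 in stabilised against wild-type leaves (26.6%) and 32 in stabilised against knockout-labelled leaves (35.3%).

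Some members differed more between libraries of a line than between lines. Of the 64 members with a mean of at least 1 RPKM, 4 varied more than 3-fold within the knockout-labelled group, 12 within the stabilised group and 7 within the wild type. UGT75C1, which glucosylates anthocyanins, had 45.7, 124 and 4.47 RPKM in knockout-labelled leaves, 56.5, 1.19 and 1.23 RPKM in stabilised leaves, and 6.58, 10.3 and 121 RPKM in wild-type leaves. The high libraries were 1 and 2 of the knockout-labelled line, 1 of the stabilised line and 3 of the wild type, so that all groups overlapped. UGT84A2 had 56.9, 93.0 and 30.7 RPKM in knockout-labelled leaves, 45.0, 10.8 and 14.6 RPKM in stabilised leaves, and 40.8, 18.3 and 48.2 RPKM in wild-type leaves. UGT73C5 had 51.4, 65.1 and 28.9 RPKM in knockout-labelled leaves, 53.1, 8.43 and 12.4 RPKM in stabilised leaves, and 28.3, 26.9 and 58.2 RPKM in wild-type leaves. The 4 highest libraries of both were those of UGT75C1, and UGT78D2, at 38.3 RPKM in stabilised library 1 against 11.2 and 15.4 RPKM in its replicates, was also high there.

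Another set stood out in wild-type library 1. UGT76E12 had 0.155, 0.0283 and 0.130 RPKM in knockout-labelled leaves, 0.143, 0.0481 and 0.0556 RPKM in stabilised leaves, and 6.19, 0.583 and 0.0678 RPKM in wild-type leaves. UGT71C3 had at most 0.586 RPKM in the lines and 2.74, 1.81 and 0.126 RPKM in wild-type leaves. Their wild-type means rest on 1 or 2 libraries and neither was called by edgeR in any comparison. DESeq2 called UGT76E12 lower in knockout-labelled against wild-type leaves (log2 -4.56, adjusted p = 0.00510) and in stabilised against wild-type leaves (log2 -4.77, adjusted p = 0.00173). Only 15.6% of the reads of UGT76E12 were at a unique position, and it lies within an overlapping non-coding gene. Over the 64 members, wild-type library 1 held the highest value of 19 and stabilised library 2 the lowest value of 21, with 13 more lowest in stabilised library 3 and 6 in stabilised library 1.

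**Figure D5:**
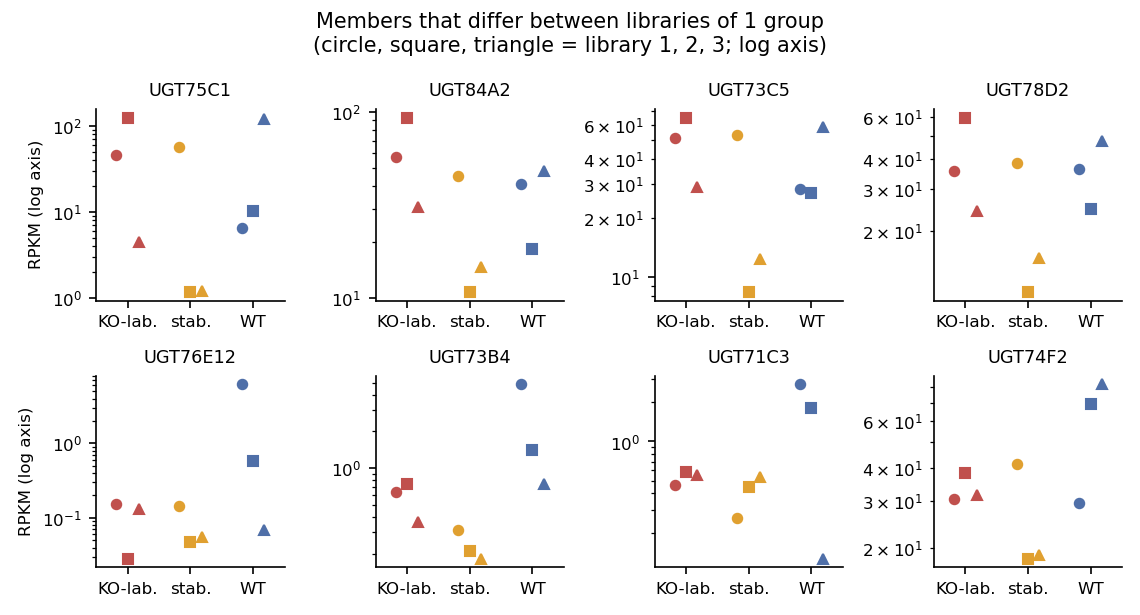
RPKM in each library (log axis; circle, square and triangle for libraries 1, 2 and 3) of 8 members that differ between libraries of 1 line, chosen after their values were seen. UGT75C1, UGT84A2, UGT73C5 and UGT78D2 are higher in stabilised library 1 than in libraries 2 and 3, and UGT76E12 and UGT73B4 are highest in wild-type library 1.

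Genes that make or convert UDP-sugars, the donors of UGT enzymes, were taken as 29 listed genes, all tested. In knockout-labelled against wild-type leaves 1 was higher and 2 lower, against 0.927% and 0.732% of all genes tested, with a median log2 fold change of -0.09. In stabilised against wild-type leaves 2 were higher and 2 lower, against 5.09% and 3.78% of all genes, with a median of 0.24. Between the lines 1 was higher and 1 lower, against 4.87% and 2.09% of all genes, with a median of 0.14. RHM1, a UDP-rhamnose synthase, averaged 52.1 ± 8.16 RPKM in knockout-labelled, 46.3 ± 7.90 RPKM in stabilised and 90.3 ± 7.83 RPKM in wild-type leaves (SD, n = 3 each). It was lower in both lines against the same wild-type libraries (log2 -0.91 ± 0.13, adjusted p = 0.0228, and log2 -0.89 ± 0.13, adjusted p = 0.00765). UDP-rhamnose is the donor of UGT78D1 and UGT89C1. UXS5, a UDP-xylose synthase, averaged 23.6 ± 3.07 RPKM in knockout-labelled, 23.7 ± 3.66 RPKM in stabilised and 12.7 ± 0.703 RPKM in wild-type leaves, and was higher in both lines (log2 0.78 ± 0.10, adjusted p = 0.0178, and log2 0.98 ± 0.10, adjusted p = 0.00180). The epimerase gene UGE4 was lower in both (log2 -0.50 and -0.51, adjusted p = 0.0496 and 0.0187), and UGE1 was higher in stabilised leaves (log2 0.98, adjusted p = 0.0352). Between the lines, the UDP-glucose dehydrogenase gene UGD2 was higher in stabilised leaves (log2 1.09, adjusted p = 0.0290) and the sucrose synthase gene SUS3 lower (log2 -1.18, adjusted p = 0.0460).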

How the data were processed

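Leaf RNA was sequenced in 9 libraries, grouped by their sample titles into 3 groups of 3. A single table from the authors gives, per the file headers, counts of all exon reads and of uniquely placed exon reads for every gene and library. They are whole numbers with no scaling. The table also holds RPKM values, deposited by the authors; for the UGT members each of these was equal to the total exon reads divided by exon length and by a constant of the library. Exon length, number of exons and gene position come from the same deposited columns, with starts raised by 1 because they count from 0. Reads were paired and trimmed, per the file headers, and the submitters' processing notes name the build TAIR10. No source used here names the aligner, the counting tool or its strand setting. Through the titles all columns found a sample (0 unmatched). RefSeq's annotation of TAIR10, in which all 105 members have the same start and end, gave sequences and neighbouring genes. UGT75B1 appears as UGT1 in the table and UGT79B1 under another name, so that neither is a member.

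Tests used the total exon reads, 28585976 to 45346301 a library. After edgeR's filterByExpr (minimum count 10, minimum total 15, minimum share 0.7) 19409 genes were tested by the quasi-likelihood functions glmQLFit and glmQLFTest of edgeR 4.0.16 under R 4.3.3, after TMM scaling. A single model held the 9 libraries with group means and no covariates, leaving 6 residual degrees of freedom. Genes with a Benjamini-Hochberg adjusted p under 0.05, over all tested, are called. Standard errors are the log2 fold change over the root of F. The TMM factors were 1.04 to 1.10 in knockout-labelled, 0.876 to 1.02 in stabilised and 0.988 to 0.999 in wild-type libraries. RPKM values, overlaps between groups and sums over the family carry no TMM scaling. The gene test was also run on counts simulated from wild-type means. That simulation held no library set apart from its replicates, so it does not cover the library differences seen here. Python 3.11.15, pandas 2.3.3 and matplotlib 3.10.9 made tables and figures. Alternatives were DESeq2 1.42.0, other size factors, totals alone, no filter, unique reads, only the 6 libraries compared, a replicate block, and leaving out each library.

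The members, the role list, the UDP-sugar list and the markers were chosen with earlier results of these data known. Values in every library are given for called members (in the stabilised against wild-type comparison, the 15 with the smallest p and a group mean of at least 1 RPKM) and for the 10 highest members. Tested members with a listed role are given by level or fold change.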

Additional observations from a re-analysis of the deposited data

Results flagged for a closer look

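UGT74E1 is listed because it was called against the wild type in opposite directions in the lines and was also called between the lines. Every knockout-labelled library lay below every wild-type library, at 0.340, 0.294 and 0.619 RPKM against 2.71, 3.56 and 2.73 RPKM, and every stabilised library lay above them, at 6.76, 10.3 and 8.71 RPKM. The contrast of the lines themselves had a log2 fold change of 4.55 in stabilised over knockout-labelled leaves (SE 0.35, adjusted p = 0.00367, edgeR's quasi-likelihood test). Because a call there was a condition of the listing, it is no separate test. The adjusted p ranged between 0.00158 and 0.0565 when each library was left out in turn, and it missed the threshold only without knockout-labelled library 1.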

How the results depend on the processing

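None of the 36 calls of a member in the 3 comparisons changed direction under any alternative run, and 6 held in all 9 fits that left out a library, all of them in stabilised against wild-type leaves. The median log2 fold change of the members kept its sign under every alternative. Among members not called, 17 of 71, 22 of 60 and 15 of 64 changed sign somewhere.

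Counts of higher and lower members are given as a pair. In knockout-labelled against wild-type leaves (1 and 5; 322 genes in all) DESeq2 called 4 and 14 members and 1778 genes, and no member was higher without the filter. Leaving out each library gave 0 to 1 and 0 to 7 members and 10 to 546 genes. In stabilised against wild-type leaves (5 and 12; 1721 genes) DESeq2 called 5 and 21 members and 3418 genes, and the fit of only the 6 libraries compared called 3 and 6 members and 615 genes. Leaving out each library gave 1 to 5 and 5 to 22 members and 584 to 3786 genes. In stabilised against knockout-labelled leaves (9 and 4; 1351 genes) DESeq2 called 10 and 12 members and 3641 genes, and the fit of only the 6 libraries called 4 and 3 members and 703 genes. Leaving out each library gave 0 to 12 and 0 to 19 members and 3 to 5241 genes; without stabilised library 1 the median of the members there was -0.44. The cause of these changes was not tested, other than that a fit of 6 libraries, or of 8, has fewer samples. With unique exon reads the counts were 1 and 6, 5 and 10, and 9 and 4; UGT73B4 and UGT89C1 could not be tested on them.

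The replicate numbers were not taken to pair the libraries. The deviations of same-numbered libraries from their group means correlated between -0.439 and 0.516. Those of differently numbered libraries of different groups correlated between -0.600 and 0.542. With the replicate number as a block the counts were 0 and 4 members and 134 genes in knockout-labelled against wild-type leaves, 4 and 12 in stabilised against wild-type leaves, and 6 and 6 in stabilised against knockout-labelled leaves.

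A group size of 3 libraries and large differences between replicates limit the power to call members, and 28 members had too few reads to be tested, so that a missing call does not show an equal level.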

Other observations

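The pair UGT79B2 and UGT79B3, both linked to anthocyanin rhamnosylation under cold and drought, differed widely in level although their coding sequences are 95.39% identical. UGT79B2 had 11519 reads over the 9 libraries and UGT79B3 had 34. All 34 were in knockout-labelled library 3, where the summed flower markers were highest, and every other library had 0. A link between the reads and these markers was not tested. UGT79B2 averaged 16.6 ± 1.76 RPKM in knockout-labelled, 20.5 ± 1.46 RPKM in stabilised and 19.3 ± 4.64 RPKM in wild-type leaves (SD, n = 3 each).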
